A study of Mus musculus with 4 samples.

Results

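The core genes of transforming growth factor beta (TGF-beta) signalling were examined in leukaemia stem cells, the leukaemic marrow cells able to restart the disease. The 10 members were chosen by symbol as 1 ligand gene (Tgfb1), the receptor genes Tgfbr1 and Tgfbr2, the SMAD genes Smad2, Smad3, Smad4 and Smad7, the corepressor genes Ski and Skil, and the ubiquitin ligase gene Smurf2. All 10 were found among the 16442 genes of the deposited table. Poly(A) RNA was sequenced from cells labelled Rreb1-KO, a knockout of the zinc-finger transcription factor gene Rreb1 (KO), and from cells labelled WT, with 2 libraries per label. All 4 libraries came from bone marrow of C57BL/6 mice with leukaemia. The sources used here do not give the leukaemia-inducing gene, the ages, the removed part of Rreb1, the Cre or promoter used, or how many mice went into a replicate. The second KO library has a genotype entry that names Rreb2, and its title was used for grouping.

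TGF-beta binds the type II receptor TGFBR2, which activates the type I receptor TGFBR1. TGFBR1 phosphorylates SMAD2 and SMAD3, and these join SMAD4, enter the nucleus and regulate genes together with other DNA-binding factors, among which RREB1 is known. SMAD7 and SMURF2 shut the receptors off, while SKI and SKIL hold SMAD complexes in a repressed state. In the marrow the pathway is known for restraining the division of blood stem cells.

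Depth, inferred from the spacing of the deposited values, was 16590830 to 18451251 reads per library. Which reads this total counts is not known. Rreb1 itself stood at 6.10 and 6.93 FPKM (fragments per exon kilobase at a common library depth) in the KO libraries and at 5.24 and 6.57 FPKM in the WT libraries. These values overlap, cover all exons together, and do not check the genotype labels, so directions are between libraries labelled KO and WT. Of the 10 leukaemic progenitor markers, all were above 0 in every library. Kit stood at 7.36 and 7.15 FPKM in KO and 3.65 and 4.25 FPKM in WT, and Hoxa9 at 35.8 and 31.8 FPKM in KO and 28.9 and 30.4 FPKM in WT. Mpo stood at 192 and 166 FPKM in KO and 399 and 309 FPKM in WT, Cd34 at 50.5 and 49.8 FPKM in KO and 68.3 and 71.5 FPKM in WT, and Flt3 at 19.5 and 17.7 FPKM in KO and 26.2 and 28.2 FPKM in WT. In 4 of the 10 both KO libraries were above both WT libraries and in 4 below. Of 11768 genes tested, 30.5% lay above in this way and 24.9% below. The main test, limma (a linear model over all genes, called at an adjusted p below 0.05), called 0 of the 10, beside 1.01% of all genes. On recovered reads limma-voom called Kit higher and Mpo, Cd34 and Flt3 lower, beside 4.06% and 2.83% of 13202 genes. Other marrow cell markers differed between the labels. The summed level of 10 neutrophil markers was 2927 and 3511 FPKM in KO and 1266 and 1292 FPKM in WT. That of 10 macrophage markers was 66.5 and 67.3 FPKM in KO and 113 and 132 FPKM in WT.

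None of the members passed the test between KO and WT. With limma on log2(FPKM + 1), 0 of the 7 members with a mean of at least 1 FPKM had an adjusted p below 0.05, where 1.01% of the 11768 genes tested did. Tgfbr1 and Smad3 had an unadjusted p below 0.05, both with higher values in KO, and such a p with a higher value in KO was found for 11.4% of all genes tested. Smad7, Skil and Smurf2 had means below 1 FPKM and were not in that test. limma-voom on reads recovered from the table kept all 10 members and called 0 of them, against 6.89% of 13202 genes. There, 3 had an unadjusted p below 0.05 (Tgfbr1, Smad3 and Smad7, all higher in KO), as did 14.3% of all genes in that direction.

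The upstream windows of Tgfbr1 and Smad3 are shown because these were the tested members whose KO libraries both lay above both WT libraries. Each is the 250 bases before the RefSeq start site (GRCm38.p6), read 5′ to 3′ on the gene's strand, and ends before the first annotated exon base. Tgfbr1 covers chr4:47352972-47353221 on the plus strand. Smad3 covers chr9:63757995-63758244 on the minus strand. Capitals mark GGCGC or GGCCG on either strand, GC-rich letters that SMAD proteins are known to bind.
Tgfbr1: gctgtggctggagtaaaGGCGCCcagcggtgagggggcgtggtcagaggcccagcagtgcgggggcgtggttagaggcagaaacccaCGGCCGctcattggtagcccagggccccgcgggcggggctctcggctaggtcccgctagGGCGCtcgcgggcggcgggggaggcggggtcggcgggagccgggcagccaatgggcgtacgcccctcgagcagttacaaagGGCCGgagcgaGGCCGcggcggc
Smad3: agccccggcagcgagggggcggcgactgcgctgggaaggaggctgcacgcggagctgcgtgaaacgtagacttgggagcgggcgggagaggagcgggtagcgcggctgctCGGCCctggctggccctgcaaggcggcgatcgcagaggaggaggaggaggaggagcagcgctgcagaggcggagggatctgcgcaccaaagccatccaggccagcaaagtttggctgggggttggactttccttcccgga

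The Tgfbr1 window held GGCGC at 3 places and GGCCG at 4, counted on both strands with overlaps allowed, and was 74.8% G and C. The Smad3 window held GGCCG at 1 place and GGCGC at 0, and was 69.2% G and C. Of 32851 RefSeq windows of the same length, 32.0% held GGCGC and 30.4% held GGCCG. The classic SMAD letters CAGAC, found in 42.2% of windows, and the palindrome GTCTAGAC, found in 0.167%, were in neither. Among the members 6 had a window (Tgfb1, Tgfbr1, Tgfbr2, Smad3, Ski and Smurf2), and Tgfbr1 had a second start site at position 47386216 with CAGAC at 1 place. Members whose groups overlapped held the GC-rich letters too. GGCGC and GGCCG were at 7 and 9 places in Ski and at 6 and 3 in Smurf2. They were at 0 and 4 places in Tgfbr2 and at 1 and 2 in Tgfb1. These are matches of letters and show no binding.

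Levels of the members were low to moderate and spanned about an order of magnitude per length. Over the 4 libraries Smad2 had the highest mean, 6.55 ± 0.303 FPKM (SD, n = 4), above 62.1% of the genes in the table. Tgfbr1 followed at 5.07 ± 1.11 FPKM and Tgfb1 at 4.47 ± 0.459 FPKM, and the ranges of neighbouring genes among these 3 overlapped. Smad4, at 3.18 ± 0.247 FPKM, lay below Tgfb1 and above Smad3 in all 4 libraries with ranges that did not overlap. Smad3 (2.38 ± 0.514 FPKM), Ski (2.11 ± 0.409 FPKM) and Tgfbr2 (2.09 ± 0.285 FPKM) had ranges that overlapped. The lowest were Smurf2 (0.818 ± 0.230 FPKM), Skil (0.650 ± 0.0946 FPKM) and Smad7 (0.537 ± 0.229 FPKM), whose ranges also overlapped. The 10 members together summed to 27.5 and 30.8 FPKM in KO and 26.4 and 26.6 FPKM in WT.

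**Figure D1:**
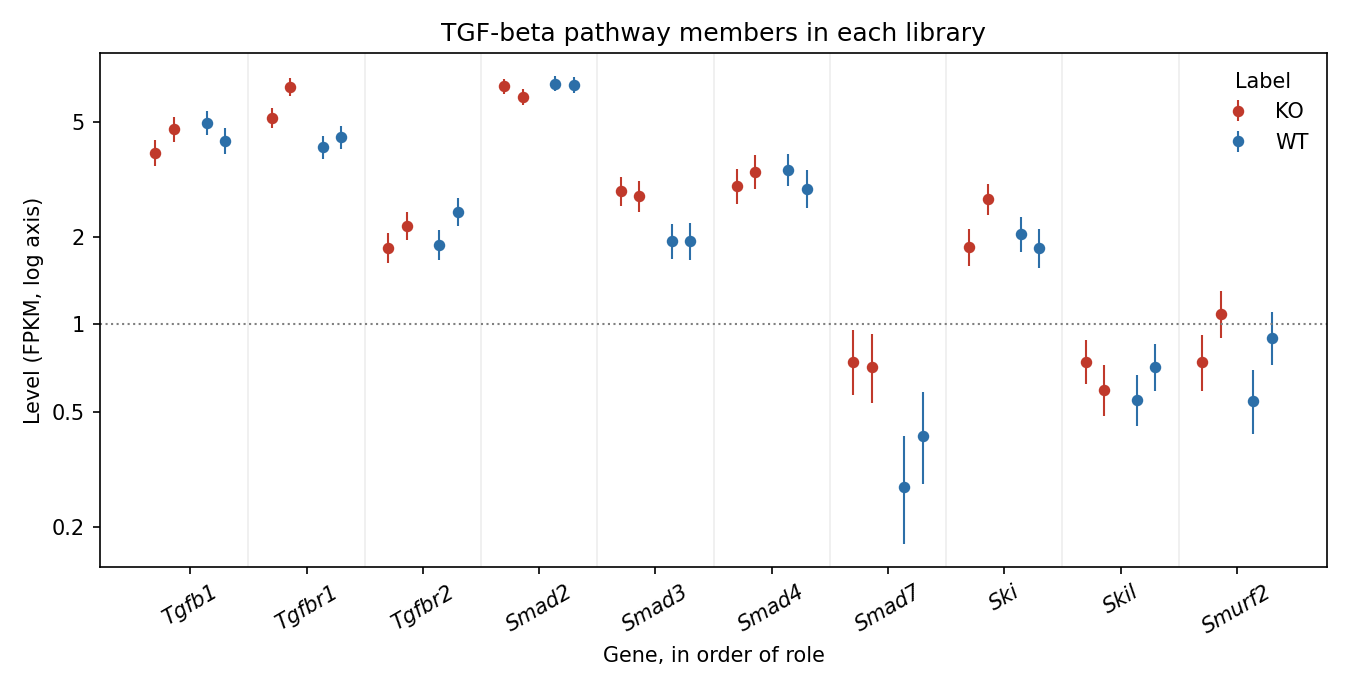
Level of each member in each library (FPKM, log axis), with KO libraries in red and WT libraries in blue, replicate 1 left of replicate 2. Bars are exact Poisson 95% intervals of the reads and cover counting error only, and the dotted line is the mean level of 1 FPKM needed for the limma test. KO points lie above WT points for Tgfbr1, Smad3 and Smad7.

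The ligand gene Tgfb1 (chromosome 7, 25687002 to 25705077, plus strand, GRCm38) encodes TGF-beta 1, the main ligand of blood cells. It stood at 3.91 and 4.70 FPKM in KO and at 4.96 and 4.30 FPKM in WT. The lowest library was KO replicate 1 and the highest WT replicate 1, and the groups overlapped. Its log2 difference was −0.087 (95% limits −0.41 to 0.23, limma adjusted p = 0.731), and without KO replicate 1 it was 0.021. The reads behind these values were 363 and 404 in KO and 461 and 360 in WT.

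Of the receptor genes, Tgfbr1 was higher in both KO libraries and Tgfbr2 overlapped, and neither passed the test. Tgfbr1 (chromosome 4, 47353222 to 47414931, plus strand), the signalling kinase of the pair, stood at 5.16 and 6.59 FPKM in KO and at 4.08 and 4.43 FPKM in WT. Both KO libraries were above both WT libraries, a separation in either direction found for 55.3% of the genes tested and upward for 30.5%. The KO libraries also differed from each other, with counting intervals of 4.76 to 5.58 and 6.13 to 7.09 FPKM. The log2 difference was 0.38 (SE 0.14, 95% limits 0.050 to 0.71, unadjusted p = 0.031, limma adjusted p = 0.201), and it was 0.23 without KO replicate 2 and 0.53 without KO replicate 1. limma-voom gave 0.45 (SE 0.15, adjusted p = 0.070).

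Tgfbr2 (chromosome 9, 116084293 to 116175360, minus strand), the ligand-binding kinase, stood at 1.84 and 2.19 FPKM in KO and at 1.88 and 2.44 FPKM in WT. Replicate 2 was higher than replicate 1 under both labels, and the groups overlapped. Its log2 difference was −0.067 (95% limits −0.45 to 0.32, limma adjusted p = 0.833), and without WT replicate 2 it was 0.062. Within a library, where library scaling cancels, the ratio of Tgfbr1 to Tgfbr2 was 2.81 and 3.02 in KO and 2.17 and 1.81 in WT. Its means were 2.91 ± 0.146 in KO and 1.99 ± 0.254 in WT (SD, n = 2 each), and the groups did not overlap. The ratios were chosen after the values were seen and were not tested, since the smallest two-sided p that an exact permutation test allows for 2 against 2 is 0.333.

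Among the SMAD genes, the closely related receptor-regulated pair lay on opposite sides of 0, and neither passed the test. Smad2 (chromosome 18, 76241580 to 76310963, plus strand) stood at 6.64 and 6.10 FPKM in KO and at 6.76 and 6.69 FPKM in WT. Both KO libraries were below both WT libraries, as for 24.9% of genes tested, by less than the KO replicates differed from each other. On the log2 scale the difference was −0.069 (SE 0.10, 95% limits −0.31 to 0.17, limma adjusted p = 0.721).

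Smad3 (chromosome 9, 63646767 to 63757994, minus strand), whose product binds DNA directly, stood at 2.88 and 2.76 FPKM in KO and at 1.94 and 1.94 FPKM in WT, from 294 and 261 reads in KO and 198 and 178 in WT. Both KO libraries were above both WT libraries, as for 30.5% of genes tested. The lowest counting bound in KO, 2.44 FPKM, was above the highest in WT, 2.24 FPKM. The share of all genes with such a gap was not computed. The replicates of each label lay close together. In WT their gap was far smaller than their counting intervals, 1.68 to 2.23 and 1.66 to 2.24 FPKM. The log2 difference was 0.38 (SE 0.13, 95% limits 0.070 to 0.69, unadjusted p = 0.024, limma adjusted p = 0.189). It was 0.36 to 0.40 with each library left out, and 0.54 by limma-voom (SE 0.18, adjusted p = 0.072). The ratio of Smad3 to Smad2 within a library was 0.434 and 0.453 in KO and 0.287 and 0.290 in WT, with means of 0.444 ± 0.0139 in KO and 0.288 ± 0.00216 in WT (SD, n = 2 each). An SD from 2 values does not show the counting error of the reads. With Smad3 higher and Smad2 lower in both KO libraries, their ratio could not overlap between labels. The pair summed to 9.52 and 8.86 FPKM in KO and 8.69 and 8.62 FPKM in WT, so Smad2 was the larger part under both labels.

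**Figure D2:**
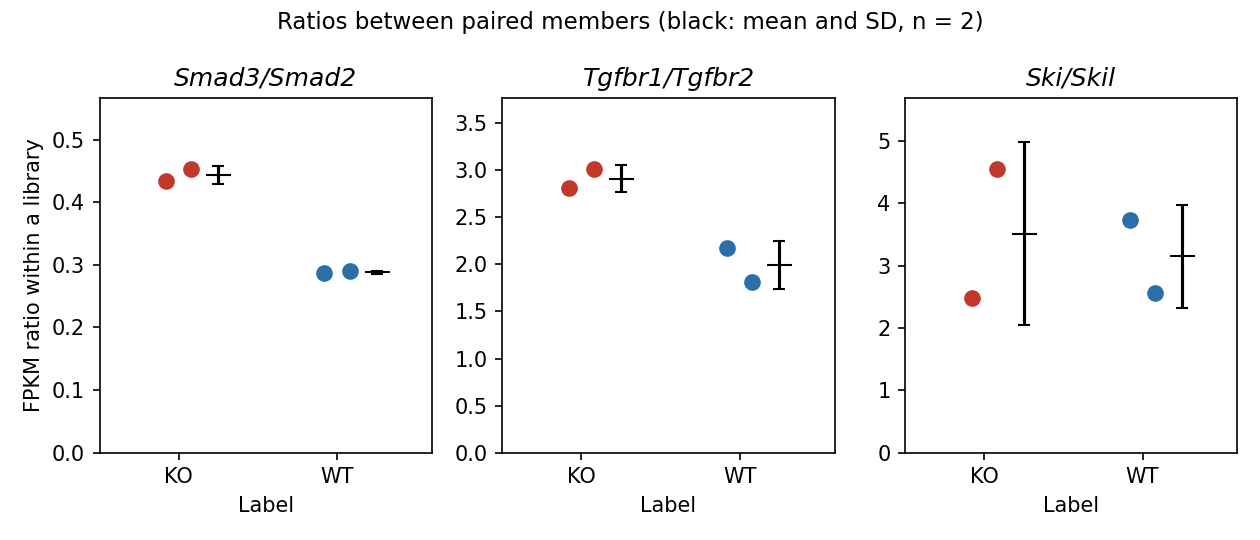
FPKM ratio of paired members within each library (vertical axes from 0), with KO left of WT, a point per library and the mean with its SD in black (n = 2 each). The ratios were chosen after the values were seen and were not tested. With Smad3 higher and Smad2 lower in both KO libraries, the Smad3 to Smad2 ratio could not overlap between labels. The Tgfbr1 to Tgfbr2 ratio does not overlap, while the Ski to Skil ratio does.

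Smad4 (chromosome 18, 73639009 to 73703780, minus strand), the shared partner of the activated SMADs, stood at 2.998 and 3.37 FPKM in KO and at 3.42 and 2.94 FPKM in WT. The KO libraries lay between the WT libraries. On the log2 scale the difference was 0.0028 (95% limits −0.31 to 0.32, limma adjusted p = 0.991) and it was −0.027 with median-of-ratios scaling and −0.021 with each library rescaled to the same sum. The fit therefore does not tell apart no difference and one of up to about 0.32 on the log2(FPKM + 1) scale. On recovered reads the 95% limits by limma-voom were wider, −0.40 to 0.39.

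Smad7 (chromosome 18, 75367529 to 75395935, plus strand), the inhibitory SMAD and itself a known target gene of the pathway, was the lowest member. It stood at 0.744 and 0.714 FPKM in KO and at 0.276 and 0.413 FPKM in WT, from 62 and 55 reads in KO and 23 and 31 in WT. Both KO libraries were above both WT libraries, as for 29.3% of all genes above 0 in the table. Counting intervals of KO replicate 2 (0.538 to 0.929 FPKM) and WT replicate 2 (0.281 to 0.587 FPKM) still overlapped. Between the labels it differed by 1.11 on the log2 scale by limma-voom (SE 0.35, 95% limits 0.37 to 1.85, unadjusted p = 0.0061, adjusted p = 0.066). On the log2(FPKM + 1) scale, which compresses low values, it was 0.36 without a filter on level (limma adjusted p = 0.264).

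The corepressor and ligase genes overlapped between labels. Ski (chromosome 4, 155154075 to 155222592, minus strand) stood at 1.84 and 2.70 FPKM in KO and at 2.05 and 1.83 FPKM in WT. KO replicate 2 was above the other 3 libraries, and its counting interval, from 2.38 FPKM, did not reach theirs, which ended at 2.13 to 2.34 FPKM. Its log2 difference was 0.14 (95% limits −0.28 to 0.57, limma adjusted p = 0.664), and −0.046 without KO replicate 2. Skil (chromosome 3, 31095058 to 31122577, plus strand), a related corepressor that TGF-beta is known to induce, stood at 0.745 and 0.593 FPKM in KO and at 0.548 and 0.715 FPKM in WT. Its limma-voom log2 difference was 0.099 (95% limits −0.42 to 0.61, adjusted p = 0.845). The ratio of Ski to Skil was 2.48 and 4.55 in KO and 3.73 and 2.56 in WT, with replicates as far apart as the labels.

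Smurf2 (chromosome 11, 106820066 to 106920715, minus strand), which SMAD7 brings to the receptors, stood at 0.740 and 1.09 FPKM in KO and at 0.545 and 0.900 FPKM in WT. Replicate 2 was higher than replicate 1 under both labels. The limma-voom log2 difference was 0.36 (95% limits −0.27 to 0.99, adjusted p = 0.492). In its exons 58 bases are shared with Gm27322 on the same strand, and the other 9 members share no exon bases with another annotated gene. The KO libraries were therefore above the WT libraries for 3 of the 10 members, below for 1 and overlapping for 6, where 51.2% of all genes above 0 did not overlap.

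**Figure D3:**
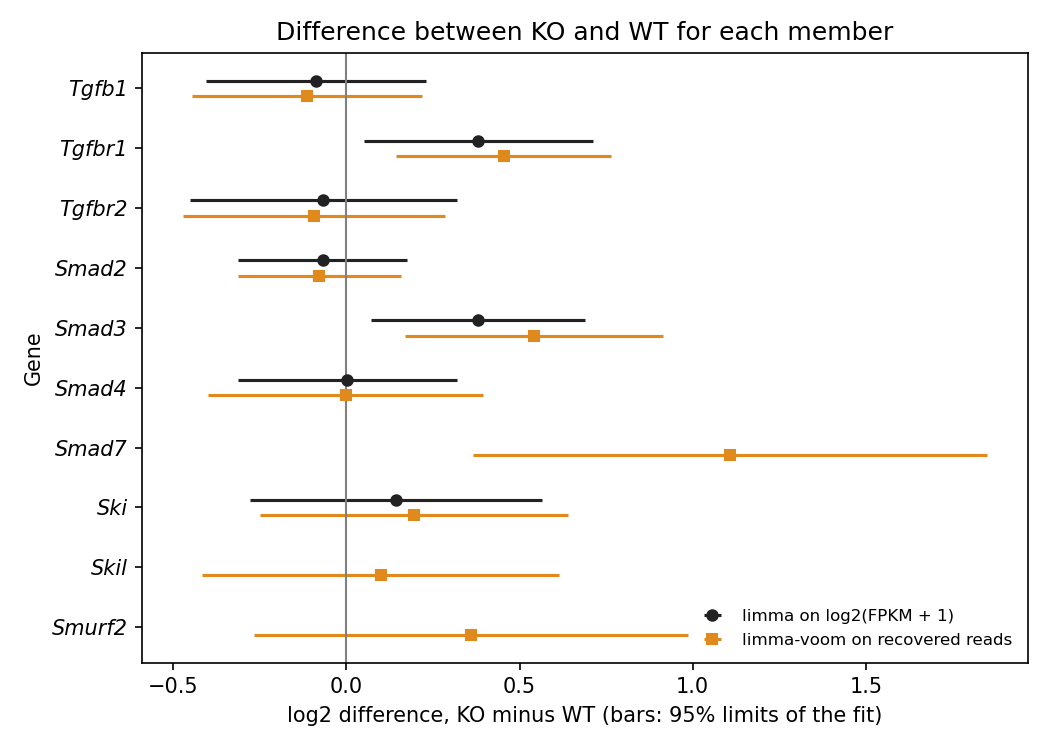
log2 difference between KO and WT for each member (points) with the 95% limits of the fit (bars), by limma on log2(FPKM + 1) for 7 members and by limma-voom on recovered reads for 10. The limits exclude 0 for Tgfbr1, Smad3 and Smad7, of which none passed after adjustment over all genes.

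The levels of bulk RNA do not tell fewer cells of a type from less RNA per cell. Markers of other marrow cells moved with the labels. By limma 7 of 10 neutrophil markers and 5 of 6 tested erythroid markers rose in KO. By the same test 3 of 8 macrophage, 3 of 5 B cell and 2 of 5 basophil, mast cell and eosinophil markers fell. Over all genes tested, 0.603% rose and 0.408% fell. The erythroid markers summed to 421 and 514 FPKM in KO and 92.6 and 83.5 FPKM in WT over 7 genes, and the B cell markers to 137 and 120 FPKM in KO and 225 and 216 FPKM in WT over 5 genes. Some members of these lists went the other way. The erythroid Klf1 was lower in both KO libraries, at 0.495 and 0.536 FPKM against 2.23 and 0.943 FPKM in WT. The B cell gene Cd79a was higher in both, at 3.09 and 3.71 FPKM against 1.79 and 1.82 FPKM in WT. The neutrophil gene Cxcr2 was lower in both, at 1.99 and 1.91 FPKM against 2.08 and 2.27 FPKM in WT. The basophil, mast cell and eosinophil markers summed to 486 and 472 FPKM in KO and 600 and 707 FPKM in WT. Prss34 and Cpa3 were the 2 that fell, while Prg2, Epx and Mcpt8 were higher in both KO libraries than in both WT libraries, the median log2 difference of the 5 was 0.22, and limma-voom called Prg2 and Epx higher. None of the megakaryocyte and platelet, T and NK cell, or stromal and endothelial markers was called by limma, while limma-voom called Pf4, Gzma and Cxcl12 lower and Col1a1 higher. Their sums were 20.8 and 22.2, 430 and 362, and 54.1 and 59.3 FPKM in KO, against 26.9 and 22.9, 293 and 354, and 47.0 and 52.0 FPKM in WT. Nkg7 alone gave 426 and 356 FPKM in KO and 282 and 341 FPKM in WT of the T and NK cell sum, whereas Cd3e, Cd8a, Trbc1 and Gzma were lower in both KO libraries than in both WT libraries. Itga2b gave 19.7 and 19.6 FPKM in KO and 18.9 and 19.5 FPKM in WT of the megakaryocyte and platelet sum. Pf4, Gp9 and Ppbp of that list were lower in both KO libraries. Pecam1 gave 48.7 and 53.0 FPKM in KO and 41.1 and 45.3 FPKM in WT of the stromal and endothelial sum. Of that list Col1a1 was also higher in both KO libraries and Cxcl12 lower. None of the 60 measured markers was at 0 in any library. The part of these cells in the values of Tgfbr1, Smad3 and Smad7 was not tested.

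Other genes of the pathway were grouped by role in 8 lists. Of 143 genes 102 were in the table and 78 were tested, of which 0 rose and 1 fell by limma (background 0.603% and 0.408%). At an unadjusted p below 0.05 by limma, 12 of the 78 were higher and 4 lower in KO. Of all 11768 genes tested, 1340 (11.4%) were higher and 1100 lower. Their median log2 difference was 0.095, beside 0.025 for all genes tested, and 52 of 78 were above 0, beside 54.0% of all genes. By limma-voom 5 of 96 rose and 4 fell, with a background of 4.06% and 2.83%.

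Among genes of ligand storage and activation, 4 of 14 were in the table, 3 were tested and 0 were called (median 0.19). The most abundant, Nrros, which holds latent TGF-beta 1 on myeloid cells, stood at 194 and 177 FPKM in KO and 208 and 186 FPKM in WT (log2 difference −0.084, limma adjusted p = 0.673). Itgav, the integrin chain that releases the ligand, stood at 3.37 and 3.49 FPKM in KO and 2.44 and 2.67 FPKM in WT (log2 difference 0.32, limma adjusted p = 0.218). Furin, the protease that cuts the precursor, had a log2 difference of 0.19 (limma adjusted p = 0.415). Tgfb2, Tgfb3, the latency proteins Ltbp1 to Ltbp4 and Lrrc32 have no row in the table and were not analysed here. Of 4 tested ligands and antagonists of related families 0 were called (median −0.070). Bmp8a, the most abundant of them, stood at 15.1 and 14.4 FPKM in KO and 10.1 and 12.6 FPKM in WT (limma adjusted p = 0.189). The secreted binding protein gene Fstl1 (−0.25, limma adjusted p = 0.339), Gdf11 (−0.16, limma adjusted p = 0.535) and the activin-binding Fstl3 (0.025, limma adjusted p = 0.932) were the others.

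In the receptor list 2 of 7 genes in the table were tested by limma and 0 called. With limma-voom 6 were tested, and Eng, the co-receptor endoglin, was called lower at 0 and 9 reads in KO and 25 and 13 reads in WT (log2 difference −3.12, SE 0.90, adjusted p = 0.049). That fold rests on few reads and depends on the prior count. Bambi, a pseudoreceptor that blocks signalling and the most abundant of them, stood at 5.71 and 5.08 FPKM in KO and 7.07 and 7.17 FPKM in WT. Both KO libraries were below both WT libraries (log2 difference −0.35, SE 0.10, unadjusted p = 0.016, limma adjusted p = 0.165). The activin receptor gene Acvr1b had a log2 difference of 0.12 (limma adjusted p = 0.617). The SMADs of the BMP branch, Smad1 and Smad5, stood at 2.21 and 4.22 FPKM on average in KO and 1.93 and 3.86 FPKM in WT, with limma adjusted p = 0.684 and 0.666.

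Among 18 tested anchoring, ubiquitin and phosphatase regulators 0 were called by limma, 1 was higher and 1 lower at an unadjusted p below 0.05, and the median was 0.076. Fkbp1a, whose product keeps TGFBR1 inactive, stood at 97.8 and 77.9 FPKM in KO and 118 and 120 FPKM in WT. Its log2 difference was −0.45 (SE 0.12, limma adjusted p = 0.145), and limma-voom called it lower (adjusted p = 0.024). Ctdsp1, a phosphatase gene, had a log2 difference of 0.24, Strap −0.18 and the SMAD4 ubiquitin ligase gene Trim33 0.29 (limma adjusted p = 0.180, 0.271 and 0.296). The most abundant gene, Skp1a, had a log2 difference of −0.082.

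Of 25 tested nuclear partners and corepressors 0 were called by limma and 18 had log2 differences above 0 (median 0.13), beside 54.0% of all genes. Ep300, the acetyltransferase p300 that SMADs recruit, stood at 5.94 and 6.94 FPKM in KO and 4.52 and 5.08 FPKM in WT (log2 difference 0.36, limma adjusted p = 0.191, called higher by limma-voom with adjusted p = 0.038). E2f4, Cited2 and Ncor1 had log2 differences of −0.27, 0.23 and 0.44 (limma adjusted p = 0.185, 0.1998 and 0.241). Hdac1, the most abundant, had −0.16 (limma adjusted p = 0.327).

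Among signalling genes that TGF-beta drives outside the SMADs, 11 were tested, 0 were called by limma and 3 were higher at an unadjusted p below 0.05 (median 0.097), 1 of them the TAK1 partner gene Tab2. On recovered reads limma-voom tested 12 of the list and called 2 higher and 0 lower. Over all genes, limma-voom called 4.06% higher and 2.83% lower. By limma 11.4% of all genes tested were higher at an unadjusted p below 0.05. Tab2 had a log2 difference of 0.36 and Tab1 0.27 (limma adjusted p = 0.201 and 0.365). Map2k3, the most abundant of the list, had −0.13 (limma adjusted p = 0.369).

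The 13 tested target genes of TGF-beta went both ways, with 1 that fell, 0 that rose and a median of 0.035. At an unadjusted p below 0.05 by limma, 4 were higher and 1 lower, where 11.4% of all genes were higher. The list does not sort targets by whether TGF-beta raises or lowers them, so its counts and median give no direction of the pathway. Tsc22d1, a TGF-beta-stimulated leucine zipper gene, fell to 16.9 and 16.3 FPKM in KO, against 29.5 and 26.2 FPKM in WT (log2 difference −0.71, SE 0.092, limma adjusted p = 0.035). With each library left out in turn its adjusted p was 0.084 to 0.216, and it was 0.084 without the filter on level and 0.0503 with median-of-ratios scaling. The log2 difference itself was −0.63 to −0.79 in every setting run. Id1, an inhibitor of differentiation factors, stood at 69.6 and 73.4 FPKM in KO and 50.9 and 56.0 FPKM in WT (0.41, SE 0.088, limma adjusted p = 0.102, and 0.029 by limma-voom). Gadd45b, Col1a1 and Bhlhe40 had log2 differences of 0.36, 0.44 and 0.45 (limma adjusted p = 0.112, 0.164 and 0.181), and limma-voom called Col1a1 higher. Rgcc, the most abundant target, stood at 265 and 246 FPKM in KO and 264 and 236 FPKM in WT (limma adjusted p = 0.870), and the cell-cycle inhibitor gene Cdkn1a at 43.9 and 39.7 FPKM in KO and 43.2 and 49.5 FPKM in WT (limma adjusted p = 0.450). Cdkn1a and the next gene were chosen after their values were seen. Ccn1, a matricellular protein gene below the level filter, had 3 and 10 reads in KO and 47 and 67 in WT, and limma-voom called it lower (log2 difference −3.25, SE 0.57, adjusted p = 0.0040). That fold rests on few reads in KO. In limma without the filter on level the log2 difference was −1.14, and Ccn1 was not called (adjusted p = 0.124).

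**Figure D4:**
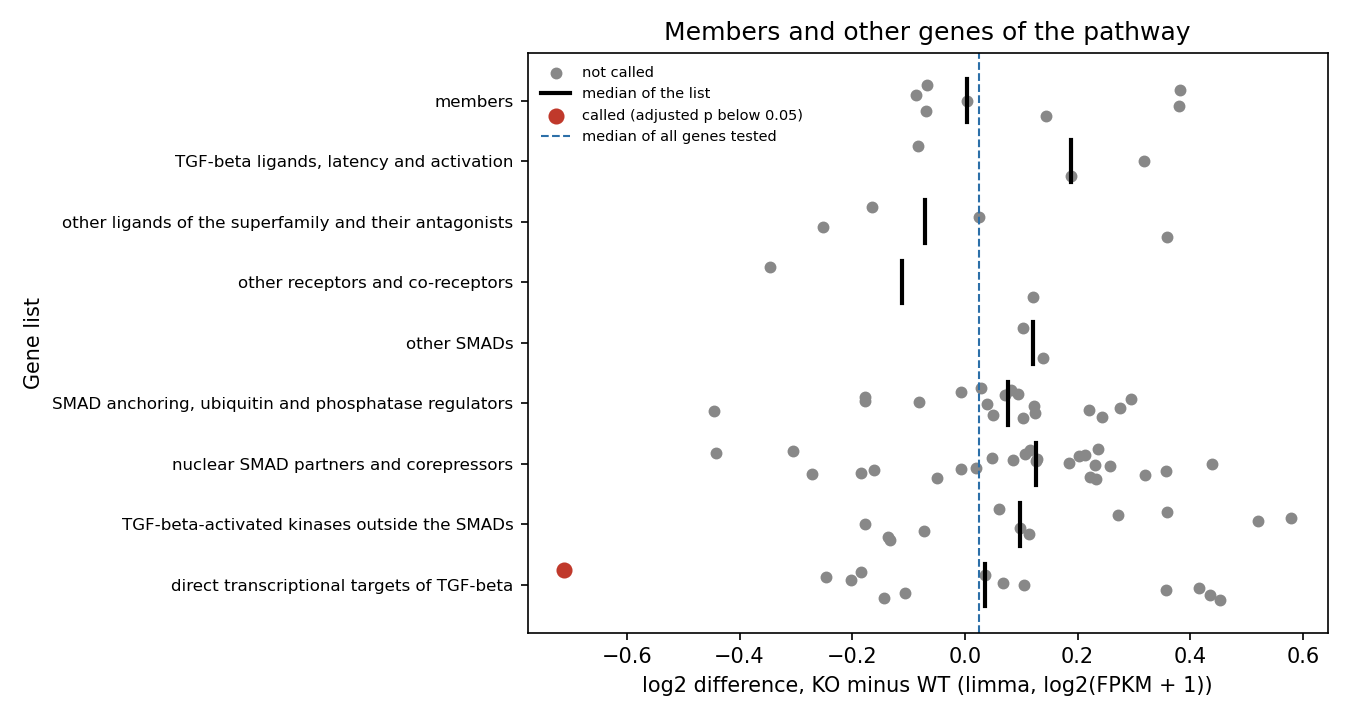
log2 difference between KO and WT (limma on log2(FPKM + 1)) of each tested gene in the member set and the 8 other pathway lists, a point per gene, with list medians as black bars and the median of all genes tested (0.025) as a dashed line. Tsc22d1, the red point at −0.71, is the called gene, and points of each list of more than 2 genes lie on both sides of the dashed line.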

How the data were processed

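Values for 16442 genes in 4 libraries were deposited by the authors. The submitters' processing notes name the build GRCm38 and the tools HISAT2 2.1.0, CASAVA, DESeq2 and featureCounts, with no roles. Per the labels' protocols, mRNA was taken on oligo-dT beads and copied from random primers, with no mention of strand. The extraction text speaks of TAMs, whereas all titles carry LSC.

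The deposited values behaved as FPKM plus 1 (lowest value 1), and 1 was subtracted. Symbols were matched to GENCODE M21 (GRCm38) for 16003 genes. FPKM times exonic length fell on whole reads within 0.05 for 99.0% to 99.2% of values up to 30 reads, and reads were recovered for 15776 genes.

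limma 3.58.1 (R 4.3.3, trend form, two-sided, group as the only term) was run on log2(FPKM + 1) for the 11768 genes whose mean reached 1 FPKM, with Benjamini-Hochberg adjustment and a threshold of 0.05. limma-voom used recovered reads with a mean of at least 10. The limma procedure was run on simulated reads that had the same spread for all genes. That run does not show which differences would be called in these data. With 2 libraries per label, p-values rest on the spread shared between genes. Counting intervals are exact Poisson intervals and cover counting error only.

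All 10 members are reported, and from each pathway list the called genes, up to 4 with the smallest p and the most abundant one, apart from items not reported here. Members and lists were chosen with earlier results of these data known. Alternatives were another pseudocount, no filter, limma-voom, 2 other scalings, the replicate number as a block and leaving out each library.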

Additional observations from a re-analysis of the deposited data

How the results depend on the processing

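The count of 0 called members, in either direction, was the same under all 11 alternatives, limma-voom with a mean of 10 reads being chosen after seeing the data. Smad7, Skil and Smurf2 entered only the fit without the filter on level and limma-voom with a mean of 10 reads. Without the filter, 22 of 16206 genes were called higher and 10 lower, and with the replicate block 40 and 26 of 11768. With so few calls over all genes, 0 called members says little. Fits with a library left out rest on less data still. Tgfbr1 (0.23 to 0.53) and Smad3 (0.35 to 0.54) stayed above 0 on the log2 scale in all 11, with adjusted p of 0.070 to 0.656 and 0.070 to 0.536. Smad2 stayed below 0. Signs turned for Tgfb1, Tgfbr2, Smad4 and Ski, whose log2 differences in the limma fit were −0.087, −0.067, 0.0028 and 0.14. The cause was not tested. With each library left out, Tgfb1 ran from −0.20 (without KO replicate 2) to 0.021 (without KO replicate 1). Tgfbr2 had its lowest value, −0.20, without WT replicate 1 and its highest, 0.062, without WT replicate 2, with 0.017 without KO replicate 1. Ski ran from −0.046 (without KO replicate 2) to 0.33 (without KO replicate 1). Smad4 was −0.0022 and −0.0023 by limma-voom with the filters of 1 FPKM and 10 reads, −0.027 with median-of-ratios scaling, −0.021 with all columns rescaled to 1 sum, 0.085 without WT replicate 1, −0.080 without WT replicate 2 and −0.061 without KO replicate 2. Of other pathway genes, 0 rose and 1 fell by limma, against 5 that rose and 2 that fell by limma-voom with the same filter, and 5 and 4 with a mean of 10 reads. The count of 1 that fell was 0 without the filter on level, with median-of-ratios scaling, with the replicate block, and with each library left out (0 to 0), fits with 1 library fewer. The replicate numbers are only numbers in the labels, same-numbered libraries had deviations with a correlation of 0.0090 over genes, and the block gave 0 called members. Depth limits Smad7, with 23 to 62 reads, most.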
